A study of Mus musculus with 4 samples.

Results

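The genes described here are 8 members of the antioxidant programme that the transcription factor NRF2 is best known for: Slc7a11, Gclm, Gclc, Nqo1, Txnrd1, Srxn1, Prdx1 and Txn1. They were chosen by name, with earlier results of these data known but with no threshold on measured values, from the 13036 genes listed in at least 1 of 4 single-cell RNA libraries, and all 4 libraries list all 8. The libraries hold CD45+CD11b+Ly6G- mononuclear cells sorted from the hind paw synovium of Cx3cr1creER:tdTomato mice, 1 library each at steady state (day 0) and on days 1, 2 and 5 after transfer of K/BxN serum, which carries autoantibodies that cause arthritis. Every group, the steady-state group included, had received tamoxifen at 4 mg/ml on a pair of occasions within 48 hours, and serum was given 4 weeks after this pulse. The creER is driven by Cx3cr1, so the reporter is switched on in cells that express Cx3cr1 at the time of the pulse. How many mice each library pools is not stated in the labels.

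NRF2 (gene Nfe2l2) is held at a low level by KEAP1, which marks it for degradation until oxidants or electrophiles modify KEAP1. NRF2 then binds antioxidant response elements in DNA with a small MAF protein. Its targets work in linked steps: SLC7A11 brings cystine into the cell, the glutamate-cysteine ligase made of GCLC and GCLM uses the resulting cysteine for glutathione, and thioredoxin with its reductase keeps protein thiols and peroxiredoxins reduced. Several of these genes also answer to other regulators, among them ATF4, which acts on amino acid shortage. In macrophages the same genes are known for handling the oxidants made during inflammation.

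The promoters are shown first because the members share a regulator by reputation but not the same letters near their start sites. RefSeq windows of the GRCm38.p6 build, from 250 bases before to 50 bases after a start site, were found for 7 of the 8 genes (9 windows), and Gclc was not matched. The antioxidant response element core TGACNNNGC, searched on both strands with N for any base, was present in 4 of the 9 windows, those of Gclm, Prdx1, Srxn1 and 1 of the windows of Txnrd1. Among all 32851 windows 12.4% hold it. In Gclm, Prdx1 and Txnrd1 below, capitals mark that core. In Slc7a11, which has no such match, capitals mark TGATGCAAA and its reverse complement, a form related to the amino acid response element that was picked after the sequence had been read and that 0.271% of all windows hold on either strand. The amino acid response element searched as TGATGNAAT, held by 0.965% of windows, was absent from every member's window. Matches are descriptions of letters and say nothing about binding in these cells.

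Slc7a11, chr3:50443564-50443863, minus strand: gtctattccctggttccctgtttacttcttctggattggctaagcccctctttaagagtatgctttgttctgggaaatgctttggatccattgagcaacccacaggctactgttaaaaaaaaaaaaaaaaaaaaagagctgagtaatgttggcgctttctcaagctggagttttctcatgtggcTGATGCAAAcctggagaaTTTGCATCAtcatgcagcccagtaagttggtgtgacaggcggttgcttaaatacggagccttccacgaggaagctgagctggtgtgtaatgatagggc

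Gclm, chr3:122245307-122245606, plus strand: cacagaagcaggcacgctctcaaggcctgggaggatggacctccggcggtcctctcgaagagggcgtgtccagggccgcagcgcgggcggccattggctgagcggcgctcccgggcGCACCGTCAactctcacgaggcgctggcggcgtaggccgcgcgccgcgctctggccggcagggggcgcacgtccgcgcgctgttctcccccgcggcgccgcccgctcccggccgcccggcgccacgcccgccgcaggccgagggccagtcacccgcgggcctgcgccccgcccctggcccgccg

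Txnrd1, chr10:82858956-82859255, plus strand: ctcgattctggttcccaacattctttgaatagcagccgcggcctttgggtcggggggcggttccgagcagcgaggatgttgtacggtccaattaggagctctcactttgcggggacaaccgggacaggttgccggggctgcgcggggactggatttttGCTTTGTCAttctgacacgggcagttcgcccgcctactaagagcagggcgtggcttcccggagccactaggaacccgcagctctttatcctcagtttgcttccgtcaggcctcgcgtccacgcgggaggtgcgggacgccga

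Prdx1, chr4:116685349-116685648, plus strand: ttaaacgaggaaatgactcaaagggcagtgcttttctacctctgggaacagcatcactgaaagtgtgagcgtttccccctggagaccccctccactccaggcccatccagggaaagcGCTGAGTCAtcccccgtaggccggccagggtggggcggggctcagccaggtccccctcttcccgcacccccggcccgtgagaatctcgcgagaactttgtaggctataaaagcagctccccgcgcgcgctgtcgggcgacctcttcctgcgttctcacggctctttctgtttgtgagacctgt

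The cores began at position -134 from the start site in Gclm, -133 in Prdx1 and -92 in Txnrd1, and at position 28 in Srxn1. Among these 4 genes, as given below, Prdx1 was nearly level over the days and Gclm was highest at day 1. Txnrd1 was highest at day 5, and Srxn1 slightly so.

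Kept barcodes had 500 or more genes and less than 10% of their unique molecular identifiers (UMIs) from mitochondrial genes, which left 3715, 4642, 2722 and 3235 barcodes at days 0, 1, 2 and 5. The day 0 library stood apart in depth: its kept barcodes had a median of 1057 UMIs, against 3607.5 to 4183.5 in the others, and 3760 of its barcodes fell under the gene minimum. Between 10 and 22 kept barcode sequences were shared by each pair of libraries. Levels are CPM, UMIs of a gene summed over barcodes and scaled to the same total in every pool, and intervals in parentheses are exact Poisson 95% intervals that cover counting error only. With 1 library per day there is no replicate check, no test was made between days or pools, and day cannot be told apart from library. A difference between days can come from a different mixture of cells or from different RNA per cell, and the library totals cannot tell these apart. All day ratios against day 0 share the day 0 library.

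Slc7a11 was the member with the large difference. This gene, on chr3:49892526-50443614 (GRCm38, minus strand), encodes the cystine and glutamate exchanger xCT. Its level was 1.61 CPM (0.647 to 3.32) at day 0 from 7 UMIs, 2.50 CPM (1.83 to 3.34) at day 1 from 46 UMIs, 3.45 CPM (2.49 to 4.67) at day 2 from 42 UMIs and 76.0 CPM (71.7 to 80.6) at day 5 from 1133 UMIs. The first 3 libraries were low with overlapping intervals, and day 5 stood alone above them. The day 5 level was 22.0 times that of day 2 (interval 16.2 to 30.7) and 47.2 times that of day 0 (22.8 to 118), where the width comes from the 7 UMIs of day 0. At least 1 Slc7a11 UMI was found in 0.188%, 0.409%, 0.992% and 13.5% of barcodes at days 0, 1, 2 and 5. After each barcode was thinned to 500 UMIs, which left no kept barcode out, these shares were 0.0269%, 0.0646%, 0.184% and 3.83%. The first 3 of these thinned shares rest on a few barcodes each, and their intervals overlap. Of the 438 positive barcodes of day 5, 231 held 2 or more Slc7a11 UMIs and 67 held 5 or more, with 24 in the highest.

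The pair of genes for the first step of glutathione synthesis did not follow the importer. Gclc (chr9:77754535-77794485, plus strand) encodes the catalytic subunit of glutamate-cysteine ligase and was at 13.3 CPM (10.1 to 17.2), 12.5 CPM (11.0 to 14.2), 12.3 CPM (10.4 to 14.4) and 9.86 CPM (8.33 to 11.6) on days 0, 1, 2 and 5. Gclm (chr3:122245557-122270732, plus strand) encodes the modifier subunit and was at 11.5 CPM (8.54 to 15.2), 17.5 CPM (15.7 to 19.5), 13.5 CPM (11.5 to 15.7) and 14.0 CPM (12.2 to 16.1). Day 5 was the lowest library for Gclc, and day 1 was the highest for Gclm. For both genes the day 5 to day 2 ratio had an interval that included 1, at 0.805 (0.637 to 1.02) for Gclc and 1.04 (0.844 to 1.28) for Gclm. The day 1 to day 0 ratio of Gclm, 1.52 (1.13 to 2.1), excluded it.

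The thioredoxin system was moderately higher at day 5. Txnrd1 (chr10:82833951-82897712, plus strand) encodes the cytosolic thioredoxin reductase, a selenoprotein, and was at 31.7 CPM (26.7 to 37.5), 29.3 CPM (26.9 to 31.9), 36.1 CPM (32.8 to 39.6) and 51.3 CPM (47.7 to 55.0) on days 0, 1, 2 and 5. Txn1 (chr4:57943373-57956411, minus strand) encodes thioredoxin itself and was at 733 CPM (708 to 759), 561 CPM (550 to 572), 582 CPM (568 to 595) and 877 CPM (862 to 893). Both had their highest library at day 5, but Txn1 was also higher at day 0 than at days 1 and 2. The day 5 to day 2 ratio was 1.42 (1.26 to 1.60) for Txnrd1 and 1.51 (1.47 to 1.55) for Txn1, and the day 5 to day 0 ratio was 1.62 (1.35 to 1.95) and 1.20 (1.15 to 1.24). Without the 5% of barcodes with the most UMIs in each library the last value was 0.968, so whether Txn1 was higher at day 5 than at day 0 rests on those barcodes.

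Prdx1 and Srxn1 act on the peroxide-removing cycle. Prdx1 (chr4:116685544-116700822, plus strand) encodes an abundant cytosolic peroxiredoxin and was at 1124 CPM (1093 to 1156), 1020 CPM (1005 to 1034), 994 CPM (976 to 1012) and 1026 CPM (1010 to 1043) on days 0, 1, 2 and 5. Srxn1 (chr2:152105516-152111376, plus strand) encodes sulfiredoxin, which repairs over-oxidised peroxiredoxins, and was at 12.7 CPM (9.53 to 16.5), 13.9 CPM (12.2 to 15.7), 13.9 CPM (11.9 to 16.2) and 17.4 CPM (15.3 to 19.6). Prdx1 was nearly level, with its highest library at day 0, and Srxn1 was slightly highest at day 5, with a day 5 to day 2 ratio of 1.25 (1.03 to 1.53). Prdx1 and Txn1 together held 96.3%, 95.4%, 95.2% and 91.8% of the UMIs of the 8 members at days 0, 1, 2 and 5, so a sum over the members describes these 2 genes.

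Nqo1 (chr8:107388225-107403206, minus strand), which encodes a quinone reductase often used as a readout of NRF2, was close to undetected. It had 1, 15, 13 and 7 UMIs at days 0, 1, 2 and 5, or 0.230 CPM (0.00582 to 1.28), 0.816 CPM (0.457 to 1.35), 1.07 CPM (0.569 to 1.83) and 0.470 CPM (0.189 to 0.968). All these intervals overlap, and Nqo1 never reached the 10 CPM in 1 of 2 libraries that was required for a gene to count as measured.

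**Figure D1:**
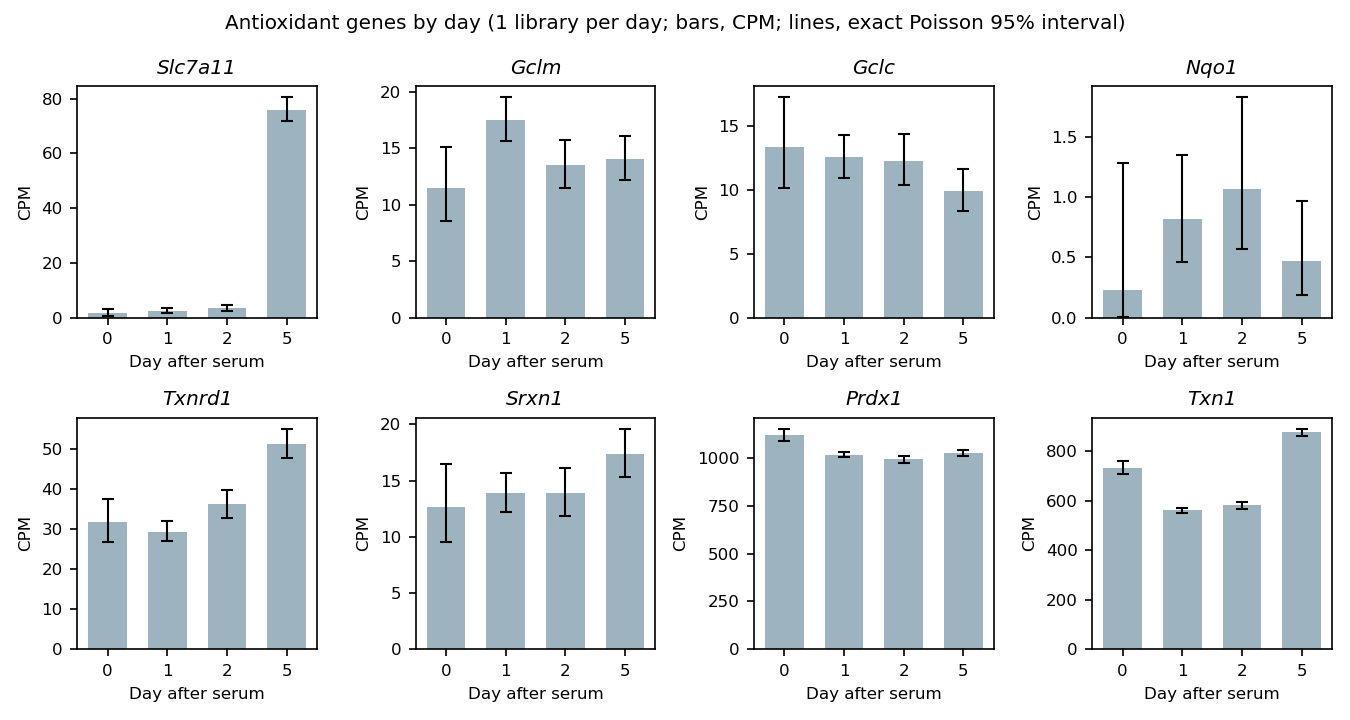
Level of each of the 8 members by day, in CPM on axes that start at 0 and differ between panels; bars are the 4 libraries, 1 per day, and lines are exact Poisson 95% intervals. Slc7a11 stands at 76.0 CPM at day 5 against 1.61 to 3.45 CPM before, while Prdx1 stays between 994 and 1124 CPM.

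Counted over the members, a 2-fold difference was rare. None of the 6 measured members was at least 2-fold higher at day 1 than at day 0, where 2.57% of 7354 measured genes were, and none of 6 at day 2, where 2.77% were. At day 5 against day 0, 1 of 7 measured members was at least 2-fold higher, Slc7a11, against 6.43% of 7419 genes, and at day 5 against day 2 it was again Slc7a11 alone of 7, against 4.11% of 7469 genes. No measured member was at least 2-fold lower in any of these comparisons, where 2.41%, 2.98%, 3.34% and 1.07% of genes were. The median log2 ratio of the 7 members at day 5 against day 2 was 0.32, beside -0.04 over all measured genes.

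Each library was then divided by marker UMIs. Sparc was taken as a marker of lining macrophages, Cd163 of interstitial macrophages, Plac8 of monocytes, and Arg1 and Spp1 of macrophages with a wound-type programme. A positive barcode has at least 1 UMI of the marker. At day 5, 915 barcodes were positive for Sparc, 789 for Cd163, 826 for Plac8, 227 for Arg1 and 1098 for Spp1 of 3235, and the pools overlap. The remaining genes of the matching marker lists were checked in each pool of day 5. Those of the lining list summed to 4933 CPM in Sparc-positive against 528 CPM in Sparc-negative barcodes, and those of the monocyte list to 2493 CPM in Plac8-positive against 290 CPM in Plac8-negative barcodes. The interstitial list without Cd163 summed to 5729 CPM in Cd163-positive against 2460 CPM in Cd163-negative barcodes. That list with Cd163 was also higher in Sparc-positive barcodes, at 4507 against 2880 CPM. The lining list with Sparc was also higher in Cd163-positive barcodes, at 3004 against 2195 CPM, so neither marker separated the lists fully. The Arg1 and Spp1 list without Arg1 summed to 6472 against 2034 CPM for Arg1. Arg1-positive barcodes also had 5417 CPM of Retnla, 1 gene of the interstitial list, against 626 CPM without Arg1. All 6 genes of that list summed to 6603 against 3086 CPM, so its other genes together were lower with Arg1. Fibroblast genes, since fibroblasts make Sparc too, were at 318 CPM in Sparc-positive against 91.9 CPM in Sparc-negative barcodes. Spp1-positive barcodes of day 5 also carried osteoclast-lineage genes, 2479 against 358 CPM, and the Arg1 and Spp1 list without Spp1 was at 1653 against 1030 CPM, so Spp1 did not mark a single cell type. Plac8-positive barcodes were 0.861%, 1.27%, 1.91% and 25.5% of the kept barcodes of days 0, 1, 2 and 5, and Spp1-positive barcodes 9.53%, 9.09%, 14.1% and 33.9%. The shallow day 0 library separated the lists less. Its lining list without Sparc was at 3257 against 2058 CPM for Sparc. Its interstitial list without Cd163 was at 4548 against 3874 CPM for Cd163, and its Arg1 and Spp1 list without Spp1 at 615 against 522 CPM for Spp1. Of its positive barcodes, 50.9% for Sparc, 82.1% for Cd163 and 80.2% for Spp1 rested on 1 UMI.

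At day 5 Slc7a11 was concentrated in the Plac8-positive and Spp1-positive barcodes and lower in the Cd163-positive and Sparc-positive barcodes. Its level was 182 CPM (168 to 196) in Plac8-positive, 121 CPM (102 to 142) in Arg1-positive and 110 CPM (102 to 119) in Spp1-positive barcodes. In Cd163-positive barcodes it was 25.7 CPM (20.7 to 31.5) and in Sparc-positive barcodes 12.8 CPM (9.70 to 16.6). The Plac8-positive pool was highest, the Arg1 and Spp1 pools did not differ beyond their intervals, and the Sparc pool was lowest. Against the negative barcodes of the same marker the ratio was 4.52 (4.01 to 5.11) for Plac8, 2.07 (1.84 to 2.33) for Spp1, 1.67 (1.39 to 2.00) for Arg1, 0.280 (0.223 to 0.347) for Cd163 and 0.124 (0.0936 to 0.162) for Sparc.

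Because the pools overlap, barcodes positive for exactly 1 of the 5 markers were also read alone. Sparc alone gave 2 Slc7a11 UMIs in 402 barcodes, 1.16 CPM (0.140 to 4.19), and Cd163 alone gave 7 UMIs in 369 barcodes, 5.04 CPM (2.03 to 10.4). Spp1 alone gave 106 CPM (92.9 to 121) in 383 barcodes and Plac8 alone 181 CPM (162 to 202) in 449. A Slc7a11 UMI was found in 29.0% of the Plac8-alone barcodes, with a median of 3744 UMIs each, and in 0.498% of the Sparc-alone barcodes, with a median of 4073.5. The pool with the lower share was thus the deeper one. The 584 barcodes with none of the 5 markers stood between, at 36.5 CPM (29.3 to 45.0). Arg1 alone was rare, with 26 barcodes and 5 Slc7a11 UMIs, or 28.7 CPM (9.33 to 67.1), and there the Arg1 ratio became 0.398.

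The highest level was in barcodes with both Plac8 and Spp1, which had 214 CPM of Slc7a11 (191 to 239) and a Slc7a11 UMI in 39.9% of 278 barcodes. Plac8 without Spp1 had 161 CPM (145 to 179), Spp1 without Plac8 had 76.4 CPM (68.5 to 85.0) and neither had 16.0 CPM (13.1 to 19.4). The 4 intervals did not overlap, but they cover counting error only and treat UMIs as independent. In the whole day 5 library, 67 barcodes with 5 or more Slc7a11 UMIs held 44.1% of these UMIs. The 1589 barcodes with neither marker, 44.8% of the day 5 UMIs, held 9.44% of the Slc7a11 UMIs.

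The other members divided the day 5 library along different lines. Txn1 was highest in Arg1-positive barcodes, at 1453 CPM (1385 to 1523), and in Spp1-positive barcodes, at 1206 CPM (1178 to 1234). It was 708 CPM (681 to 735) in Plac8-positive, 669 CPM (643 to 697) in Cd163-positive and 668 CPM (645 to 693) in Sparc-positive barcodes. Thus the Arg1 and Spp1 pools led for thioredoxin and the Plac8 pool did not: positive over negative ratios were 1.75 (1.67 to 1.85) for Arg1, 1.82 (1.76 to 1.89) for Spp1 and 0.757 (0.726 to 0.790) for Plac8.

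Txnrd1 and Srxn1 were also high in the Spp1 and Arg1 pools. Txnrd1 was at 65.0 CPM in Spp1-positive barcodes, 60.0 in Arg1-positive, 54.8 in Plac8-positive, 37.8 in Cd163-positive and 37.1 in Sparc-positive barcodes, where the first 3 intervals overlap each other. Its positive over negative ratio was 1.54 (1.33 to 1.78) for Spp1 and 0.647 (0.541 to 0.770) for Sparc. Srxn1 was at 24.5 CPM (16.4 to 35.2) in Arg1-positive, 23.3 CPM (19.6 to 27.6) in Spp1-positive, 20.4 CPM in Plac8-positive, 14.8 CPM in Sparc-positive and 10.7 CPM in Cd163-positive barcodes, with the first 3 again overlapping. Its ratio was 1.73 (1.35 to 2.23) for Spp1, 1.46 (0.957 to 2.15) for Arg1 and 0.551 (0.379 to 0.779) for Cd163. For Plac8 the intervals of both genes included 1.

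The glutamate-cysteine ligase subunits ran opposite to Slc7a11 in the Plac8 division. Gclm was at 8.21 CPM (5.58 to 11.7) in Plac8-positive barcodes, 19.4 CPM in Arg1-positive, 19.2 CPM in Cd163-positive, 17.8 CPM in Sparc-positive and 14.2 CPM in Spp1-positive barcodes. The monocyte pool was thus the lowest for the modifier subunit, though its interval met that of the Spp1 pool (11.3 to 17.6), and the highest for the cystine importer. The Plac8 ratio was 0.513 (0.339 to 0.755) for Gclm and 0.575 (0.355 to 0.896) for Gclc. All measured genes had a median log2 ratio of -0.18 in this division. Under median-ratio scaling the ratios were 0.587 for Gclm and 0.658 for Gclc, nearer to 1. Prdx1 differed least of all, with ratios from 0.881 for Plac8 (1.01 under median-ratio scaling) to 1.05 for Sparc, and Nqo1 had no more than 4 UMIs in any of the 5 pools.

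**Figure D2:**
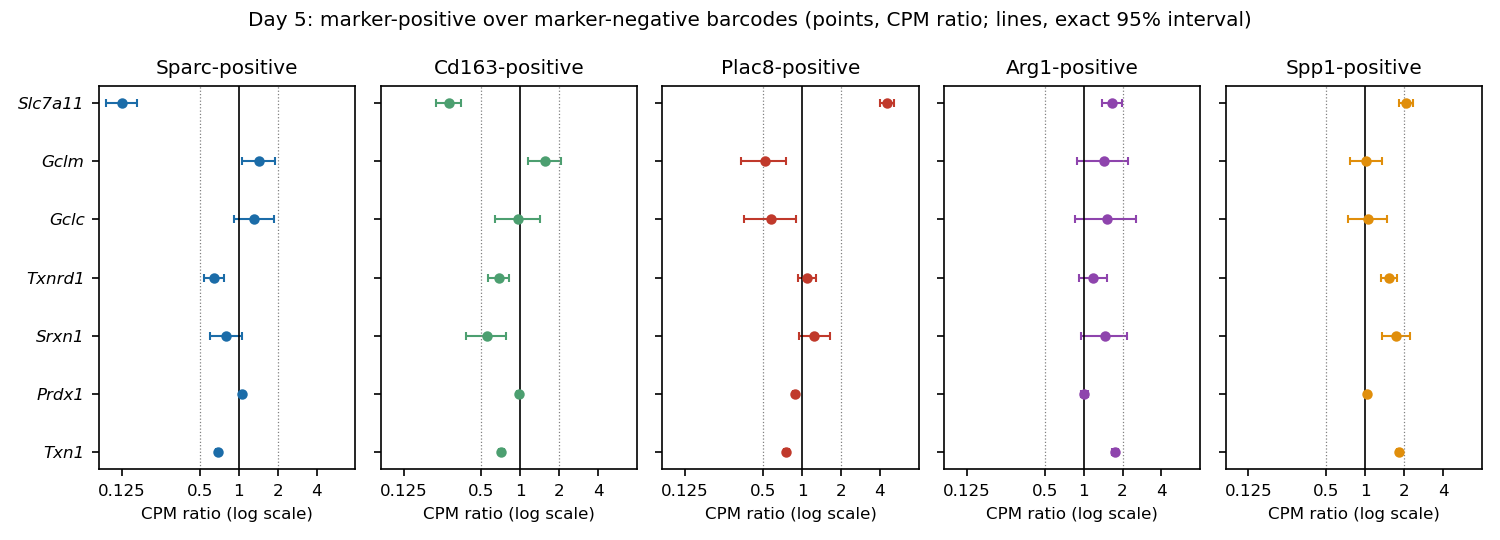
Ratio of CPM in marker-positive over marker-negative barcodes of the day 5 library for 7 members, on a log axis; points are ratios, lines exact 95% intervals, and dotted lines mark 2-fold. Slc7a11 lies at 4.52 for Plac8 and 0.124 for Sparc, Gclm and Gclc lie below 1 for Plac8, and Txn1 lies at 1.75 for Arg1 and 1.82 for Spp1.

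By the count, 1 of 7 measured members was at least 2-fold higher in Plac8-positive barcodes, beside 4.53% of 7443 genes, and 1 of 7 in Spp1-positive barcodes, beside 1.95% of 7395 genes. It was Slc7a11 each time. In Arg1-positive barcodes 0 of 7 passed, beside 1.86% of genes, although all 7 ratios were above 1 and their median log2 ratio was 0.55 against -0.02 over all measured genes. In Spp1-positive barcodes all 7 were above 1 too, with a median of 0.62 against -0.01. Of the Arg1-positive barcodes 67.8% were also positive for Spp1. With Arg1 alone, in 26 barcodes, Slc7a11, Txnrd1 and Prdx1 were below 1, at 0.398, 0.910 and 0.959. Gclm, Gclc, Srxn1 and Txn1 stayed above 1 there. Slc7a11 was also the 1 member of 7 at least 2-fold lower in Sparc-positive barcodes, beside 5.19% of genes, and the 1 of 6 in Cd163-positive barcodes, beside 2.91%. In the opposite directions 0 members passed, where 11.3% of genes were at least 2-fold lower for Plac8, 1.34% lower for Spp1, 4.26% lower for Arg1, 6.73% higher for Sparc and 2.59% higher for Cd163.

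Other signals moved with these pools, and their part in the results was not tested. The immediate-early and heat-shock list (9 genes, Fos, Jun, Hspa1a and others that answer to tissue dissociation) summed to 7997 CPM in Plac8-positive against 4142 CPM in Plac8-negative barcodes, and to 8277 CPM in Slc7a11-positive against 4561 CPM in Slc7a11-negative barcodes. Over whole libraries this list was at 4915, 3497, 5296 and 5118 CPM on days 0, 1, 2 and 5. Plac8-positive barcodes of days 1 and 2 had 6560 and 8219 CPM of it, against 3456 and 5239 CPM in Plac8-negative barcodes. The 32 Plac8-positive barcodes of day 0 had less, 4162 against 4922 CPM. Slc7a11-positive barcodes of days 1 and 2, 19 and 27 in number, had 7542 and 7510 CPM, against 3467 and 5265 CPM in Slc7a11-negative barcodes. Neutrophil genes (5 of 6 listed) summed to 115 CPM in Plac8-positive against 25.6 CPM in Plac8-negative barcodes, although the gate excludes Ly6G. Without barcodes that held an S100a8 or S100a9 UMI the Plac8 ratio of Slc7a11 was 4.98 and the day 5 to day 2 ratio 27.0, but the Spp1 ratio became 1.95. Haemoglobin genes (4 of the 5 erythroid genes, as Alas2 was not listed at day 5) summed to 398 CPM in Spp1-positive against 5.67 CPM in Spp1-negative barcodes. Without barcodes that held a haemoglobin UMI the Spp1 ratio of Txn1 was 1.84.

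At days 1 and 2 the Plac8 pool already held a large share of the few Slc7a11 UMIs. Plac8-positive barcodes had 104 CPM (67.3 to 154) at day 1, from 25 UMIs in 59 barcodes, and 86.7 CPM (52.9 to 134) at day 2, from 20 UMIs in 52 barcodes. Sparc-positive barcodes had 0.979 CPM (0.422 to 1.93) and 1.24 CPM (0.536 to 2.45) on the same days. The monocyte pool was therefore far above the lining pool on each day, with 54.3% and 47.6% of the library's Slc7a11 UMIs in 1.27% and 1.91% of its barcodes. Single barcodes weighed heavily: 1 barcode held 17 of the 46 UMIs at day 1 and 1 held 9 of the 42 at day 2. Without them the Plac8-positive levels were 33.9 CPM (14.6 to 66.8) and 48.5 CPM (24.2 to 86.7), still above the Sparc-positive levels. The same day 1 barcode was positive for Spp1 and Arg1, and without it the Spp1-positive level fell from 12.4 to 5.12 CPM and the Arg1-positive level, over 43 barcodes, from 92.0 to 21.3 CPM.

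Within pools the day 5 difference in Slc7a11 had different sizes. In Plac8-positive barcodes the day 5 to day 2 ratio was 2.1 (1.35 to 3.45), in Sparc-positive barcodes 10.3 (4.90 to 25.0), in Cd163-positive barcodes 16.8 (8.18 to 40.1) and in Spp1-positive barcodes 24.9 (13.5 to 52.3). The Plac8 ratio was the lowest, but it depends on the single day 2 barcode with 9 Slc7a11 UMIs: without the barcode with the most UMIs in each library it was 3.63 (2.01 to 7.30), an interval that overlaps that of the Sparc pool. Beside these ratios, 9.52%, 1.63%, 2.04% and 5.41% of measured genes were at least 2-fold higher at day 5 in the 4 pools. At day 0 no Slc7a11 UMI was found in the 354 Spp1-positive barcodes, an interval of 0 to 8.47 CPM. The day 5 level there was 16.0-fold higher when 3 counts are allowed for the day 0 pool, which is a set floor and not a bound. The Sparc and Cd163 pools of day 5 overlap the others, with 29.2% of Sparc-positive barcodes also positive for Spp1 and 7.76% for Plac8, and the Sparc-alone level of day 5 was 1.16 CPM as given above.

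For Txn1 the day 5 to day 2 ratio was above 1 in 4 pools and largest in the Spp1 pool, and differences between pools were not tested. Txn1 in Spp1-positive barcodes was at 749 CPM (670 to 835), 716 CPM (682 to 751), 684 CPM (651 to 719) and 1206 CPM (1178 to 1234) on days 0, 1, 2 and 5. In Sparc-positive barcodes it was at 695, 590, 581 and 668 CPM. The Spp1 pool was thus clearly highest at day 5, while the Sparc pool of day 5 was no higher than that of day 0. The day 5 to day 2 ratio of Txn1 was 1.76 (1.67 to 1.86) in the Spp1 pool, 1.28 (1.21 to 1.36) in the Cd163 pool, 1.24 (1.04 to 1.49) in the Plac8 pool and 1.15 (1.10 to 1.21) in the Sparc pool. For Txnrd1 it was 1.59 (1.27 to 2.02) in the Spp1 pool, 0.974 (0.557 to 1.86) in the Plac8 pool and 1.10 (0.889 to 1.35) in the Sparc pool. The osteoclast-lineage list of the whole library was at 957, 241, 319 and 1200 CPM on days 0, 1, 2 and 5, high on the same 2 days as Txn1, and its part in this was not tested.

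**Figure D3:**
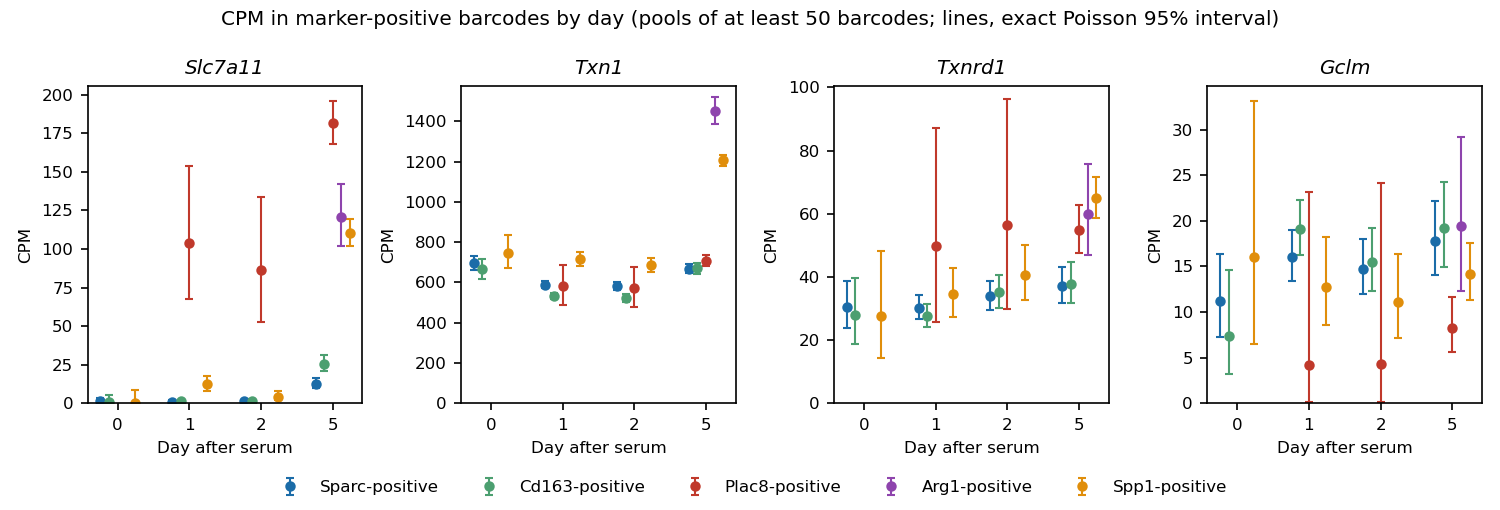
CPM of Slc7a11, Txn1, Txnrd1 and Gclm in marker-positive barcodes of each library by day, on axes that start at 0; colours are the 5 pools, lines exact Poisson 95% intervals, and pools under 50 barcodes are left out. Slc7a11 is above 80 CPM in Plac8-positive barcodes at days 1, 2 and 5, and Txn1 of the Spp1 pool stands at 1206 CPM at day 5 against 684 to 749 CPM before.

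Barcodes of day 5 with a Slc7a11 UMI were compared with those without for the other members. The 438 positive barcodes had more Srxn1, with a ratio of 1.82 (1.35 to 2.43), more Txnrd1, with 1.59 (1.33 to 1.89), and more Txn1, with 1.24 (1.19 to 1.30). Gclm was lower, with 0.633 (0.383 to 0.997), Gclc had 0.842 (0.491 to 1.37) and Prdx1 1.04 (0.992 to 1.08). Median depth was close, at 4076 and 3868 UMIs. Within the 227 Arg1-positive barcodes, 57 of them with a Slc7a11 UMI, the split ran the other way for Txn1, at 0.833 (0.734 to 0.943). Txnrd1, at 0.624 (0.285 to 1.23), and Srxn1, at 0.793 (0.236 to 2.12), were also below 1, but their intervals included it. Only Prdx1 of 6 measured members was above 1, at 1.17 (1.03 to 1.34). Gclm, at 0.362 (0.0412 to 1.48), and Gclc, at 0.238 (0.00567 to 1.53), rest there on 2 and 1 UMIs. In Arg1-negative barcodes Txn1 had 1.29 (1.23 to 1.36), Txnrd1 1.73 (1.44 to 2.07) and Srxn1 1.99 (1.45 to 2.69). Over all barcodes of day 5, none of the 6 measured members passed 2-fold in either direction, beside 3.54% of genes higher and 9.29% lower. This count leaves aside the Arg1-positive split, where Gclm and Gclc were past 2-fold lower on 2 and 1 UMIs. The positive barcodes of the whole library also had more of the Arg1 and Spp1 macrophage list, 5387 against 1919 CPM, of the monocyte list, 2679 against 1021 CPM, and of the osteoclast-lineage list, 2454 against 979 CPM. They had less of the lining list, 493 against 2722 CPM, and the part of these differences in the ratios was not tested.

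The rest of the antioxidant network was read from 6 lists, whose genes were chosen with earlier results of these data known. Between days 5 and 2, 8 of their 61 measured genes (13.1%) were at least 2-fold higher and 0 were lower, beside 4.11% and 1.07% of all measured genes. By list, 3 of 13 measured glutathione genes, 1 of 10 thioredoxin and peroxiredoxin genes, 1 of 9 NRF2 regulators, 1 of 6 other oxidant-removing enzymes, 2 of 9 ATF4 and amino acid stress genes and none of 14 other NRF2-type targets were higher. Among those with at least 50 CPM were Glrx (glutaredoxin) at 86.1 against 38.7 CPM, a ratio of 2.22 (2.00 to 2.47), Prdx6 at 205 against 96.2 CPM, with 2.13 (1.99 to 2.28), and Msrb1 (a methionine sulfoxide reductase) at 285 against 134 CPM, with 2.12 (2.01 to 2.25). Against day 0, 5 of 61 (8.20%) were higher at day 5 and 2 (3.28%) lower, beside 6.43% and 3.34% of all measured genes, shares close to the background. Of these, 2 of 13 glutathione genes, 1 of 14 other targets and 2 of 9 ATF4 and amino acid stress genes were at least 2-fold higher at day 5, 1 of the targets and 1 of the stress genes were lower, and none of the other 3 lists passed. Hmox1 (haem oxygenase, a well-known NRF2 target) was lower at day 5, at 175 against 367 CPM, a ratio of 0.477 (0.448 to 0.508), and Nupr1, a stress-response gene, was at 331 against 732 CPM, with 0.451 (0.432 to 0.472). Taldo1 (transaldolase, of the pentose phosphate pathway) was higher, at 378 against 188 CPM, with 2.01 (1.87 to 2.17).

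In the Plac8 division 11 of the 61 measured genes (18.0%) were at least 2-fold higher and 9 (14.8%) lower, beside 4.53% and 11.3% of all measured genes, so the lower share was near the background. Of 13 measured glutathione genes 3 were at least 2-fold higher and 2 lower in Plac8-positive barcodes of day 5, and of 11 thioredoxin and peroxiredoxin genes 3 were higher and 3 lower. Of 8 NRF2 regulators 2 were higher, of 14 other NRF2-type targets 1 was higher and 3 lower, of 6 other oxidant-removing enzymes 1 was higher, and of 10 ATF4 and amino acid stress genes 2 were higher and 1 lower. Sesn2 is in both the thioredoxin and the ATF4 list and is counted as higher in each, but once in the total. The list medians were between -0.25 and 0.20 on the log2 scale, beside -0.18 over all measured genes.

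Nfe2l2, which encodes NRF2, was among the higher genes of that division, at 278 against 128 CPM, a ratio of 2.17 (2.01 to 2.36). Gsr, the reductase that regenerates glutathione, was at 90.3 against 19.8 CPM, with 4.57 (3.84 to 5.44), and Msrb1 was at 692 against 147 CPM, with 4.71 (4.42 to 5.01). Prdx6 had a ratio of 2.93, Taldo1 2.49, Glrx 2.34, Gstp1 2.28 and Prdx5 2.19. The lower genes were led by the scavenger receptor Cd36 at 73.9 against 345 CPM, a ratio of 0.214 (0.189 to 0.242), Sesn1 (a sestrin) with 0.322, Blvrb (a biliverdin reductase) with 0.356, Mgst3 with 0.414, Txnip (an inhibitor of thioredoxin) with 0.425 and Prdx4 with 0.463. Nupr1 had 0.479.

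**Figure D4:**
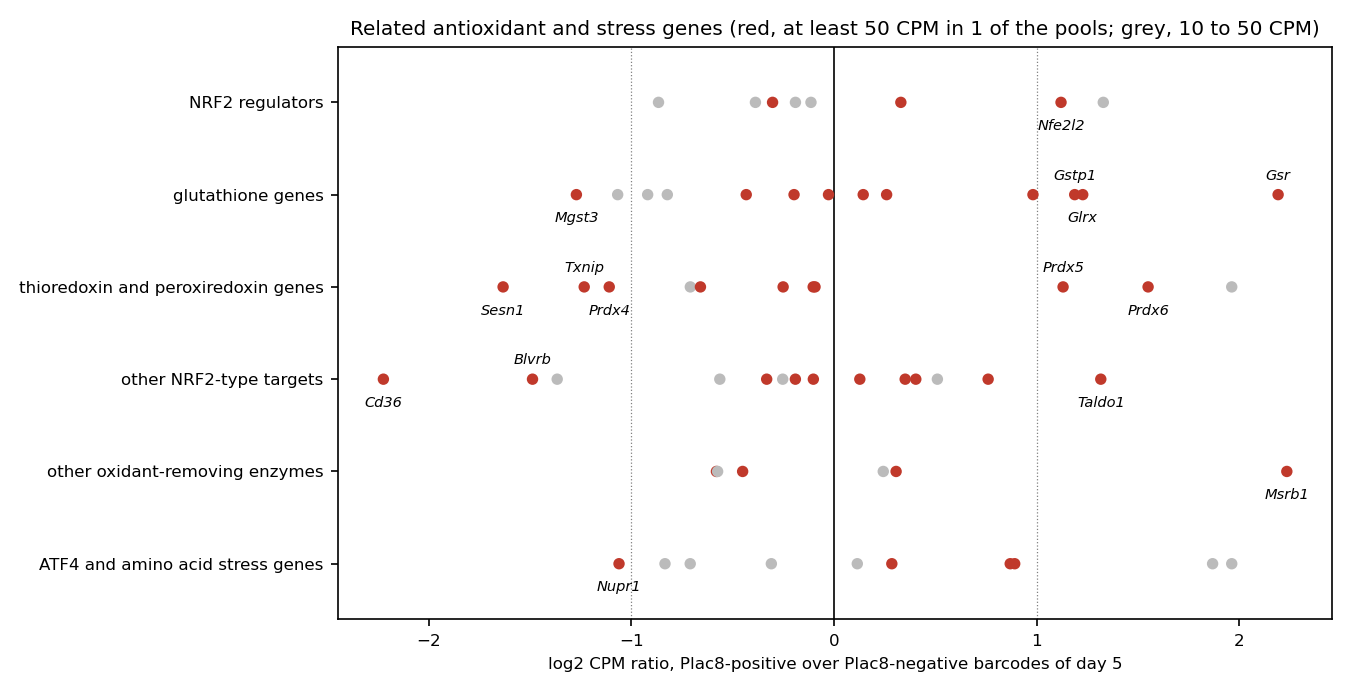
log2 ratio of CPM in Plac8-positive over Plac8-negative barcodes of day 5 for measured genes of 6 related lists; each point is a gene, red with at least 50 CPM in 1 of the pools, and dotted lines mark 2-fold. Gsr and Msrb1 lie furthest right, with ratios of 4.57 and 4.71, and Cd36 furthest left, with 0.214.

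In the Spp1 division 1 of 60 measured genes (1.67%) was at least 2-fold higher and 0 were lower, beside 1.95% and 1.34% of all measured genes, which is near the background. By list, 0 of 8 NRF2 regulators, 0 of 13 glutathione genes, 0 of 10 thioredoxin and peroxiredoxin genes, 0 of 14 other targets and 0 of 6 other enzymes were 2-fold different, and 1 of 9 ATF4 and amino acid stress genes was higher. In the Sparc division 4 of 60 (6.67%) were higher and 9 (15%) lower, beside 6.73% and 5.19% of all measured genes. For Cd163, 2 of 60 (3.33%) were higher and 4 (6.67%) lower, beside 2.59% and 2.91%. For Arg1, 1 of 60 (1.67%) was higher and 4 (6.67%) lower, beside 1.86% and 4.26%.

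Genes whose levels ran most like each member were ranked over 17 disjoint pools of at least 50 barcodes (day by single marker, or none) among 6465 genes. Pools of 1 day share a library and its depth, so the correlations are descriptions. Slc7a11 was followed most closely by F10 (coagulation factor X, also in the monocyte list, r = 0.957), Ptgs2 (the inducible cyclooxygenase, r = 0.954) and Carmil1 (r = 0.949). Txnrd1 ran with Nfkb2 (r = 0.906), Prdm1 (r = 0.892) and Cycs (cytochrome c, r = 0.886). Txn1 ran with Cox5a (r = 0.937), Cstb (r = 0.933) and Ndufb6 (r = 0.929), of which Cox5a and Ndufb6 encode respiratory chain subunits. For Gclm the closest were Herc1 (r = 0.927), Cog7 (r = 0.829) and Pdlim5 (r = 0.818), for Gclc Ddhd2, Agap3 and Mcu (r = 0.849 to 0.854), for Srxn1 Dcaf15, Dnajc8 and Nubp2 (r = 0.894 to 0.922), and for Prdx1 Acp5, Mt3 and Cdv3 (r = 0.783 to 0.796). The ranking for Nqo1 rests on too few UMIs to be read.

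Between members the likeness was uneven. Slc7a11 and Txnrd1 had r = 0.841 over the 17 pools, while Slc7a11 had r = -0.442 with Gclm, -0.633 with Gclc and -0.160 with Prdx1. Gclm and Gclc, the subunits of 1 enzyme, had r = 0.01, though both were near 10 to 20 CPM, where counting error is large.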

How the data were processed

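Libraries, 1 per day, were made from 17400 loaded cells with version 2 of the 10x Chromium 3' chemistry, per the labels' protocols. The deposited values are raw UMI counts for every listed gene in each barcode. Cell Ranger 2.1.0, Seurat 2.3, R 3.5.2 and the mm10 build are named in the submitters' processing notes, without the step that each was used for. The files list genes found in at least 5 barcodes. The 8 members, the pathway and cell type lists and the comparisons were chosen with earlier results of these data known.

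Counts were summed over barcodes with 500 or more genes and less than 10% mitochondrial UMIs, giving 4347517, 18373038, 12159063 and 14901661 UMIs at days 0, 1, 2 and 5. A count of 3 would be 0.690, 0.163, 0.247 and 0.201 CPM in these totals. Doublets were not called; leaving out the 5% of barcodes with the most UMIs was an alternative. The 95% intervals are exact conditional Poisson intervals for ratios of CPM and Clopper-Pearson intervals for shares, and cover counting error only. A gene counted as measured with a listing in both groups and at least 10 CPM in 1. Calls were at 2-fold. Shares were also taken after thinning to 500 UMIs. Free RNA was not removed, and reads of Prdx1 and Txn1 may be split with near-identical copies. List genes named had at least 50 CPM in 1 group and were among the 3 with the largest ratios in either direction, or are given as values; the other members of a list are counted. For likeness, Pearson's r was taken on log2(CPM + 5) among genes with at least 20 CPM in 1 pool. Levels of different genes are UMIs near the 3' end and were not set against length.

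Alternatives were other gene minimums, a 5% mitochondrial limit, median-ratio scaling, the mean of each barcode's CPM, at least 2 marker UMIs, 1 marker alone, no CPM minimum and no high-UMI barcodes. Leaving out barcodes with haemoglobin UMIs, with S100a8 or S100a9 UMIs, those shared between libraries, or the barcode with the most Slc7a11 UMIs was added after the data were seen. Promoter windows came from RefSeq and gene positions from the GENCODE annotation, both on GRCm38, the assembly of mm10. The ratios and intervals were tested on simulated counts. The work used SciPy 1.17.1 and NumPy 2.4.6 in Python 3.11.15, with pandas 2.3.3 for tables and matplotlib 3.10.9 for figures.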

Additional observations from a re-analysis of the deposited data

Results flagged for a closer look

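The Txn1 ratio of Sparc-positive over Sparc-negative barcodes lay on opposite sides of 1 on different days, with intervals that excluded 1: the day 0 ratio was 0.893 (0.833 to 0.958), the day 1 ratio 1.10 (1.05 to 1.14) and the day 5 ratio 0.692 (0.664 to 0.721). The Prdx1 ratio of Plac8-positive over Plac8-negative barcodes was 1.19 (1.05 to 1.33) at day 1, from 59 positive barcodes, and 0.881 (0.848 to 0.915) at day 5, or 1.01 at day 5 under median-ratio scaling. With 1 library per day the differences between days were not tested. Sparc also separated the lining list less at day 0 than at day 5, as given above.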

How the results depend on the processing

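Of 100 counts of members under an alternative, 88 were within 1.5 times the main count and 12 were not. Without the minimum of 10 CPM, members at least 2-fold higher numbered 1 at day 1 against day 0 (0 in the main count), 2 at day 2 against day 0 (0), 2 at day 5 against day 0 (1) and 1 for Arg1 (0), and 2 were lower for Sparc (1). This setting lets in Nqo1 and the low Slc7a11 values. For Arg1 the count was 2 with Arg1 alone and 1 without the high-UMI barcodes. For Spp1 (1) it was 0 at 1000 genes, 2 with at least 2 Spp1 UMIs and 0 without S100a8 or S100a9 barcodes; Slc7a11 lies near 2-fold there. For Cd163 lower (1) it was 2 with at least 2 UMIs and 2 with Cd163 alone. Of 706 ratios under an alternative 31 lay on the other side of 1 from the main ratio. For 24 the main interval already included 1. For 3 it did not: Slc7a11 with Arg1 alone was 0.398 (main 1.67), Txn1 at day 5 against day 0 without the high-UMI barcodes was 0.968 (main 1.20), and Prdx1 for Plac8 under median-ratio scaling was 1.01 (main 0.881). The other 4 had a main ratio past 2-fold: Nqo1 at a 200-gene minimum was 0.947 at day 1 (main 3.55) and 0.545 at day 5 (main 2.04) against day 0, Nqo1 with Sparc alone was 1.01 (main 0.391), and Slc7a11 at day 2 against day 0 was 0.874 at 1000 genes (main 2.15). The day 5 to day 0 ratio of Slc7a11 ran from 19.5 at 1000 genes, where 96 barcodes and 1 Slc7a11 UMI remain at day 0, to 67.0 without the high-UMI barcodes. No paired analysis was possible because each day has 1 library, and leaving out a replicate could not be done for the same reason. Low counts limit Nqo1 throughout, and Slc7a11 before day 5.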
